A study of Homo sapiens with 3 samples.

Results

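The comparison described here sets HaCaT keratinocytes given all-trans retinoic acid (ATRA) together with nicotinamide (NIC) against untreated HaCaT keratinocytes, and uses 2 of the 3 arrays of the study. HaCaT is a human skin keratinocyte line that immortalized spontaneously, here grown in RPMI-1640 medium with fetal bovine serum. The 3 groups were untreated cells (Control), cells given ATRA alone and cells given ATRA+NIC, with 1 NimbleGen expression array each. The labels give ATRA at 1 µM for 36 h. They give no nicotinamide dose. None of the 3 arrays had nicotinamide by itself, so the ATRA+NIC array differs from the control array by both agents at once. The third array, of cells given ATRA alone, is printed beside each gene for orientation. With 1 array per group there is no error between cultures and no test, and every difference below describes these 2 arrays.

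Transcripts that share a gene name were averaged on the log2 scale, which gave 23611 genes. A gene entered the comparison when it reached a log2 level of 7.94, an intensity of 246.4, on at least 1 of the 3 arrays, and 12476 of the 23611 genes did. That level is the median over all genes and arrays. A difference is the log2 level on the ATRA+NIC array minus that on the control array, and a gene is called higher or lower from a difference of 1, a 2-fold change. Intensities are given in the order control, ATRA, ATRA+NIC.

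Retinoic acid binds nuclear receptors of the RAR family, which sit on DNA with RXR partners, typically at direct repeats of a short hexamer, and switch their target genes on when the ligand arrives. Among the best known targets are the CYP26 enzymes, which degrade retinoic acid and so limit its action. In cultured keratinocytes retinoids are known to shift keratin and cornified envelope genes away from the epidermal program and towards that of moist, simple epithelia. Nicotinamide is a precursor of NAD, the cofactor of sirtuins and poly-ADP-ribose polymerases, and it inhibits both enzyme classes.

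The promoters of CYP26A1 and TRIM31 are printed because they are the only windows, among the 91 genes called higher that have one in the RefSeq table (GRCh38.p14), with the classical retinoid repeat. The search was for AGGTCA or AGTTCA followed, after 5 bases, by either of them in the same orientation, on both strands. Each window runs from 250 bases before to 50 bases after the RefSeq start, on the strand of the gene, and capitals mark the repeat. In CYP26A1, at chr10:93073643-93073942 on the plus strand, the repeat begins 90 bases before the start. In TRIM31, at chr6:30113041-30113340 on the minus strand, it begins 200 bases before the start.
CYP26A1: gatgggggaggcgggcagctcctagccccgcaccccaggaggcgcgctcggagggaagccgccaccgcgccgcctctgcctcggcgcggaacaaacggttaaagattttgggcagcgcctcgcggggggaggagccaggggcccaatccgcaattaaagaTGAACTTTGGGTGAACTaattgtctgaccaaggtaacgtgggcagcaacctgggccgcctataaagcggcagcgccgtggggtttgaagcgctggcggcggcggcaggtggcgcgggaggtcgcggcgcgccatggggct
TRIM31: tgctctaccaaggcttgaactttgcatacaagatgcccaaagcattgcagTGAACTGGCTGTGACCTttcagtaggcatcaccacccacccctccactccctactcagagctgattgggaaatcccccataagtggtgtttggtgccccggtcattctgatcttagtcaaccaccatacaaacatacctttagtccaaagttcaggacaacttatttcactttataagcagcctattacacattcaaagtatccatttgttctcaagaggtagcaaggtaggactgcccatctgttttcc
The repeat occurred in 7 of 35116 RefSeq windows (0.0199%). It occurred in 3 of the 8681 genes that passed the filter and had a window, and in none of the 64 genes called lower. The third was PHF8, a histone demethylase gene, with a difference of 0.32. A match is a stretch of letters and says nothing of binding.

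Most genes had nearly the same level on both arrays. The median difference was −0.01 with an SD of 0.38, and 88.3% of the 12476 genes lay within 0.5 of no difference on the log2 scale. At least 2-fold higher with ATRA+NIC were 128 genes (1.03%), and at least 2-fold lower were 122 (0.978%). These shares, and the 48.8% of genes with differences above 0, are the background for the list counts below. With levels below an intensity of 50 raised to 50, 126 and 119 genes stayed at 2-fold or more. The directions were nearly even at 3-fold or more, with 38 higher and 36 lower genes (34 and 32 with the raised levels), and 23 higher and 8 lower genes differed by 4-fold or more (19 and 6). Among the higher genes were TRIM31, CDH5, the retinoic acid enzymes CYP26A1 and CYP26B1 and 4 kallikreins. Among the lower genes were the basal keratin KRT5 and the wound keratins KRT6A to KRT6C, the matrix genes THBS1, TNC and FN1, the chemokines CCL3 and CCL4, and INHBA, a subunit of activin.

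The only measure of scatter was that between transcripts of a gene. Their differences had a pooled SD of 0.24 on the log2 scale. Of the called genes read by more than 1 transcript, 64 of 65 higher and 64 of 66 lower genes differed in the same direction in all of them, against 62.2% of all such genes. The calls rest on the mean of these same transcripts, so this agreement is largely built in. Choosing genes on their first transcript alone gave 90 higher ones, with a median of 1.28 there and 1.16 on the second transcript, and 96 lower ones, with −1.29 and −0.87. The filter bears on the counts: 65 of the 128 higher genes lay under it on the control array, and 53 of the 122 lower genes lay under it on the ATRA+NIC array. Of these, 13 higher and 13 lower genes lay under it on both compared arrays and passed through the ATRA array alone. The ones named here are DHRS9, CEACAM5, CEACAM6, S100P, GPR37L1, FA2H, CXCL3 and MUC13 among the higher genes, and CCN2, MMP10, EGR3, CCL3L1 and PRF1 among the lower ones. The median transcript intensity was between 297.9 and 302.3 on the 3 arrays, and the random control probes lay between 18.4 and 19.6. A fold whose dimmer level, or a transcript of it, was below 50 is a lower bound: values below 50 were raised to 50 for it, and "at least" stands before it.

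**Figure D1:**
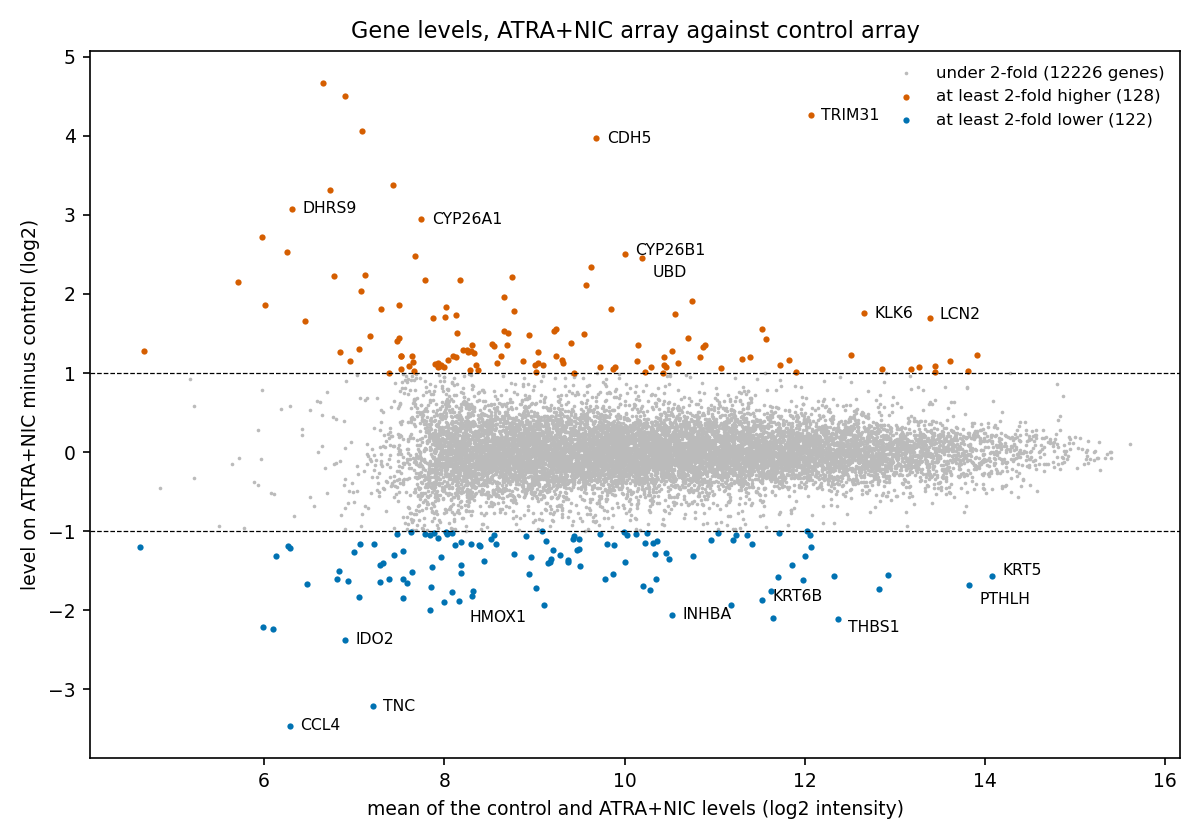
Difference of the gene level, ATRA+NIC minus control (log2, vertical axis), against the mean of both levels (log2 intensity, horizontal axis) for the 12476 genes that passed the filter. Orange points are the 128 genes at least 2-fold higher, blue points the 122 at least 2-fold lower, dashed lines mark 2-fold, and the labelled genes are ones described in the text. TRIM31 and CDH5 stand above the cloud at middle to high levels, while THBS1 and KRT5 lie below it at high levels.

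Genes that act on retinoic acid itself included some of the highest differences. Of 13 enzymes and transporters of retinoid conversion that passed the filter, 3 were higher by at least 2-fold (23.1%, beside 1.03% of all genes) and 0 lower. Their median difference was 0.08 beside −0.01 for all genes. DHRS9, 1 of the 3, passed the filter through the ATRA array alone. CYP26A1, the retinoic acid hydroxylase (hg18 chr10:94823656-94827631), read 77.3, 342 and 595. It was 7.70-fold higher with ATRA+NIC than in control, from 1 transcript, with the ATRA array between them. CYP26B1, a second hydroxylase of the family, read 432, 1851 and 2445 and was 5.66-fold higher, with 2.48 and 2.52 on its 2 transcripts. DHRS9, a dehydrogenase that acts on retinol, read 27.3, 434 and 231 and was at least 4.61-fold higher. Its level was highest on the ATRA array. STRA6, the cell surface receptor that takes up retinol from its plasma carrier, differed by 0.65, and DHRS3, which turns retinal back to retinol, by 0.45. Both stayed under 2-fold. The dehydrogenase ALDH1A3, which makes retinoic acid, differed by 0.09.

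The receptors themselves lay close to their control levels. None of the 13 receptor, binding protein and cofactor genes that passed the filter was called, and their median was −0.09. RARG, the main retinoic acid receptor of epidermis, read 3439, 4027 and 3809, and its partner RXRA read 2209, 1646 and 2168. RARA read 1601, 2408 and 1312, a difference of −0.29, and CRABP2, which carries retinoic acid to the nucleus, differed by 0.20. RARB, often listed as a retinoid target, read 19.3, 23.6 and 22.5, near the random probes on every array. The largest difference in the list belonged to NRIP1, a ligand-dependent corepressor, which read 1038, 1829 and 1547 and differed by 0.58.

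**Figure D2:**
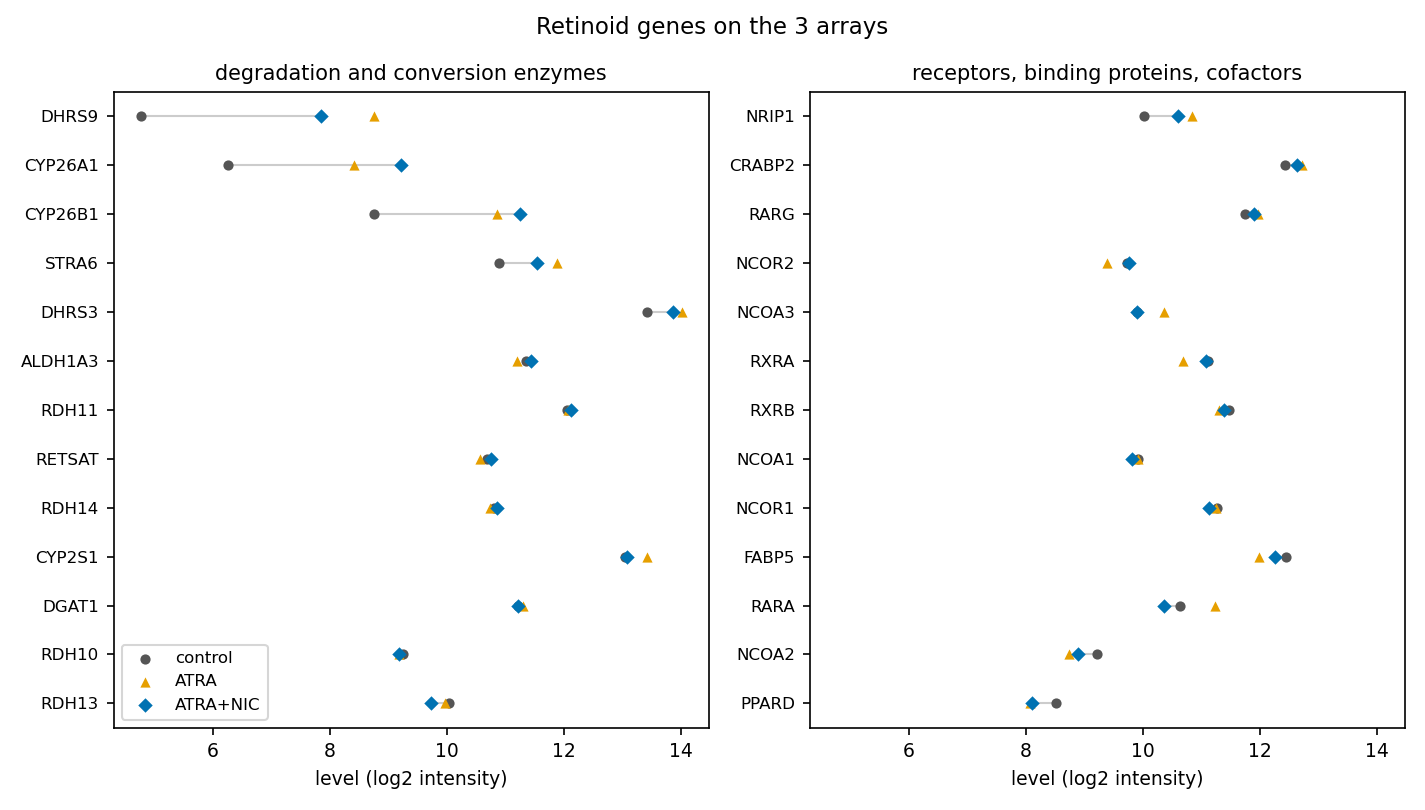
Levels (log2 intensity) on the control (grey circles), ATRA (orange triangles) and ATRA+NIC (blue diamonds) arrays of the 13 retinoid enzyme genes (left) and 13 receptor, binding protein and cofactor genes (right) that passed the filter, ordered by difference, with a line joining control and ATRA+NIC. DHRS9, CYP26A1 and CYP26B1 are set apart from control, while in the right panel all 13 pairs are under 2-fold apart.

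Of 15 further genes listed as retinoid responders, 3 were called higher (20%, beside 1.03% of all genes) and 0 lower, and the median difference was 0.31. LCN2, an iron-scavenging secreted protein of epithelial defence, read 5948, 23318 and 19231 and was 3.23-fold higher. PDZK1IP1, a small membrane protein of epithelia, was 2.95-fold higher. PLAAT4, a phospholipase first described as a tazarotene-induced gene, read 260.1, 380.1 and 663 and was 2.55-fold higher. Both LCN2 and PDZK1IP1 were highest on the ATRA array, and PLAAT4 was highest on the ATRA+NIC array. TINAGL1, a matrix protein, was just short of 2-fold with a difference of 0.996.

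The greatest difference of a gene with a plain symbol and 1 transcript was that of TRIM31, which encodes a ubiquitin ligase of the tripartite motif family (hg18 chr6:30178652-30188846). It read 983, 10983 and 18774, a 19.1-fold difference between ATRA+NIC and control, and reached a high level on both treated arrays. BMP3, a member of the bone morphogenetic protein family, read 53.4, 515 and 557 and was 10.4-fold higher. ALOX5, the 5-lipoxygenase that starts leukotriene synthesis, read 135, 653 and 612 and was 4.52-fold higher. FOXJ1, the master transcription factor of motile cilia, read 64.3, 280.4 and 302 and was 4.70-fold higher. In these 4 genes both treated arrays stood well above control. GPR37L1, an orphan G-protein-coupled receptor, was at least 3.67-fold higher.

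A pair of single-transcript genes was high on the ATRA+NIC array alone. OR13G1, an olfactory receptor gene, read 33.2, 34.0 and 554, and CFAP54, a cilia and flagella protein gene, read 33.8, 19.9 and 336. OR13G1 was at least 11.1-fold higher and CFAP54 at least 6.72-fold. Each rests on 1 transcript of 3 probes, so no second reading of the same gene stands beside it.

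Genes with 2 or more transcripts gave a second reading. CDH5, the cadherin that joins endothelial cells, read 209, 2534 and 3263 and was 15.6-fold higher, with transcript differences of 3.51 to 4.62. All 3 of its transcripts were brighter on both treated arrays than on control. The other 11 endothelial markers listed did not pass the filter, and 7 of them were below an intensity of 50 on all 3 arrays. The highest level among the 11 was 7.65 on the log2 scale. PECAM1, a surface protein of endothelial cells, read 21.7, 49.0 and 24.7. The receptor KDR read 14.8, 14.5 and 11.3 and was near the random probes. In RNA of a whole culture, more cells of a type and more RNA per cell cannot be told apart.

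The next genes by rank encode transport, junction, mucus and other proteins. PIGR, which carries immunoglobulin A across epithelia, read 86.4, 936 and 483 and was 5.59-fold higher. UBD, a ubiquitin-like modifier, read 500.2, 4059 and 2737 and was 5.47-fold higher. MUC20, a membrane mucin, read 352, 1789 and 1789 and was 5.08-fold higher. The treated arrays were alike for MUC20, while PIGR and UBD were highest on the ATRA array. TJP3, a scaffold protein of tight junctions, read 366, 1694 and 1589 and was 4.34-fold higher. GABRP, a GABA receptor subunit found in epithelia, read 66.3, 202 and 273 and was 4.11-fold higher. SYTL2, which acts in vesicle transport, was 3.88-fold higher, and LXN, a carboxypeptidase inhibitor, was 3.77-fold higher. LXN read 889, 2324 and 3356 and so was brightest with ATRA+NIC.

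Cell adhesion molecules of the CEACAM family stood high in the same group. CEACAM3 read 201, 1052 and 933 and was 4.65-fold higher. CEACAM6 read 24.6, 344 and 162 and CEACAM5 read 33.9, 378 and 123, at least 2.99-fold and at least 2.20-fold higher. These genes are near-identical over parts of their sequence, so probes may bind more than 1 of them. S100P, a calcium-binding protein, read 50.5, 658 and 237 and was at least 3.98-fold higher. DEFA1, a neutrophil defensin gene, read 25.1, 246 and 569 and was at least 11.4-fold higher. Its copy DEFA3 has nearly the same sequence, and reads of the pair cannot be told apart.

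**Figure D3:**
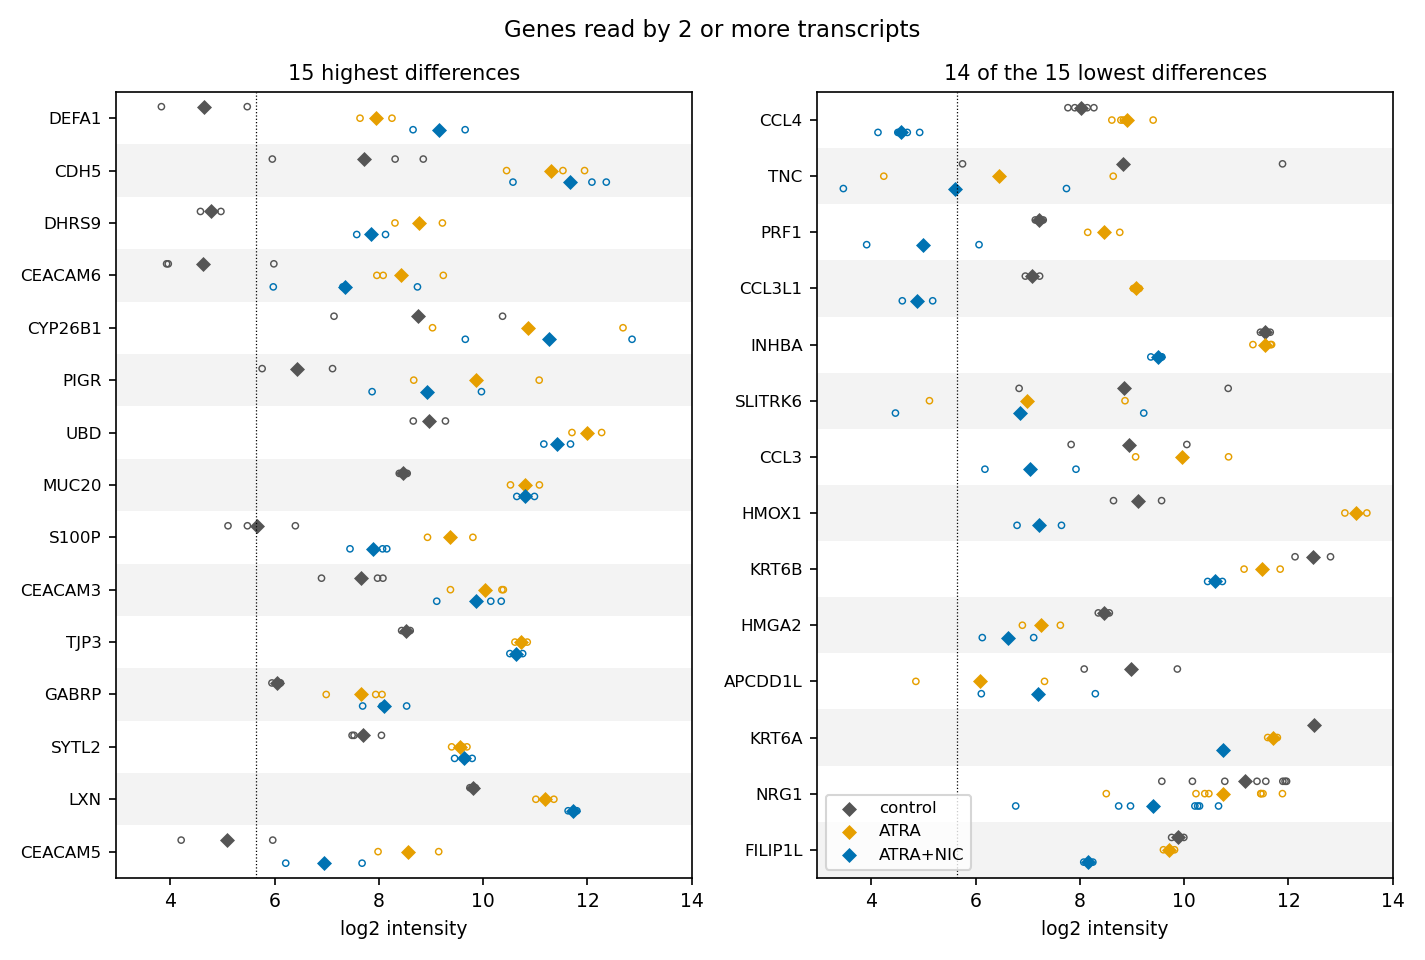
Levels (log2 intensity) on the control (grey), ATRA (orange) and ATRA+NIC (blue) arrays of the 15 genes with the highest (left) and 14 of the 15 with the lowest (right) difference among genes read by 2 or more transcripts. Diamonds are gene levels, open circles single transcripts, and the dotted line is an intensity of 50. CDH5, MUC20 and TJP3 are set apart from control in all transcripts, and HMOX1 is bright on the ATRA array alone.

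The kallikreins, serine proteases of the skin surface that are known to cut corneodesmosomes, contributed 4 higher genes. KLK6 read 3527, 13359 and 11883, a 3.37-fold difference. KLK13 was 2.88-fold, KLK11 2.65-fold and KLK10 2.22-fold higher. KLK8 and KLK5 differed by 0.86 and 0.66, under 2-fold. The 3 genes of the list that were called lower encode protease inhibitors. PI3, an elastase inhibitor also called elafin, read 1539, 1057 and 508 and was 3.03-fold lower. SERPINB7 read 842, 280.0 and 289 and SERPINB2 read 493, 1070.5 and 171, 2.92-fold and 2.88-fold lower. SERPINB7 was low on both treated arrays, and SERPINB2 was highest on the ATRA array. The other protease inhibitors of the list that passed the filter were not called and went both ways. SERPINB1, SLPI, SPINT2 and SPINT1 differed by 0.83, 0.41, 0.14 and 0.05, and SERPINB5, SERPINB13 and SERPINB8 by −0.44, −0.39 and −0.11. In all, 21 genes of this list passed the filter, and 33.3% of them were called, beside 2.00% of all genes. Their median difference was 0.38, while the median over all 27 measured was 0.14.

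The genes of the keratinocyte layers differed mainly in the keratins of the basal layer and of wounds. KRT5, the basal keratin, read 29746, 10041 and 10009 and was 2.97-fold lower, with nearly the same level on both treated arrays. Its partner KRT14 read 372, 385 and 452, a difference of 0.28. KRT15, a basal keratin linked to stem cells, read 7687, 15893 and 16281 and was 2.12-fold higher. KRT6A, a keratin of wounded and fast-growing epidermis, read 5785, 3314 and 1715 and was 3.37-fold lower. KRT6B and KRT6C were 3.67-fold and 4.28-fold lower, but the 3 genes are near-identical and may share probes. KRT16 and KRT17, which are induced with them in wounds, differed by 0.61 and 0.35, and KRT17 was slightly lower on its brightest transcript (−0.08). Of the 8 keratins of simple and mucosal epithelia that passed the filter, KRT4 alone was called (12.5%, beside 2.00% of all genes). It read 491, 749 and 984, a difference of 1.00. KRT13, KRT19, KRT8 and KRT18 lay between −0.09 and 0.22.

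Most genes of the late differentiation program were dim in this line. Of 31 cornified envelope and late differentiation genes, 8 passed the filter, none was called, and their median was 0.03. IVL, the envelope precursor involucrin, read 5316, 2329 and 3922, a difference of −0.44. FLG, which encodes filaggrin, read 421, 224 and 430.2, and TGM1, the cross-linking transglutaminase, read 519.6, 523 and 527. Both were nearly level between control and ATRA+NIC. KRT10 read 53.2, 66.6 and 93.0 and LORICRIN 39.5, 45.9 and 38.5, neither passing the filter. Of 20 epidermal transcription factors and Notch genes, none was called. TP63, the master regulator of stratified epithelia, read 4217, 5913 and 2193, a difference of −0.94, and the Notch ligand JAG1 differed by −0.92. KLF4 and GATA3, both linked to differentiation, each differed by 0.72.

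Each list of barrier genes, of the cell contacts and of lipids, held 1 called gene. That is 5.26% of the tight junction list, 5.26% of the desmosome and adherens junction list, 4.55% of the epidermal lipid list and 3.57% of the cholesterol synthesis list, where 2.00% of all genes were called in either direction. Among 19 tight junction genes TJP3 was the only one called, and their median was −0.03. CLDN1, the claudin needed for the epidermal water barrier, read 8786, 8152 and 5183, a difference of −0.76, whereas CLDN4 read 10754, 20717 and 18909, a difference of 0.81. OCLN, which encodes occludin, differed by 0.39. Among 19 desmosome and adherens junction genes CDH5 was the only one called. The desmosomal genes DSC3, PKP1 and DSP differed by −0.96, −0.76 and −0.75, and CDH1, which encodes E-cadherin, by 0.26. Of 22 epidermal lipid genes, FA2H, the fatty acid hydroxylase of skin ceramides, was called, 2.77-fold higher, and the median was 0.13. FA2H read 87.2, 441 and 241 and passed the filter through the ATRA array alone. HMGCS1, of cholesterol synthesis, was 2.01-fold lower and the only one of 28 genes called in its list. AQP3, the water and glycerol channel of epidermis, read 2698, 5194 and 3106, a difference of 0.20, and CD44, the hyaluronan receptor, differed by −0.73.

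**Figure D4:**
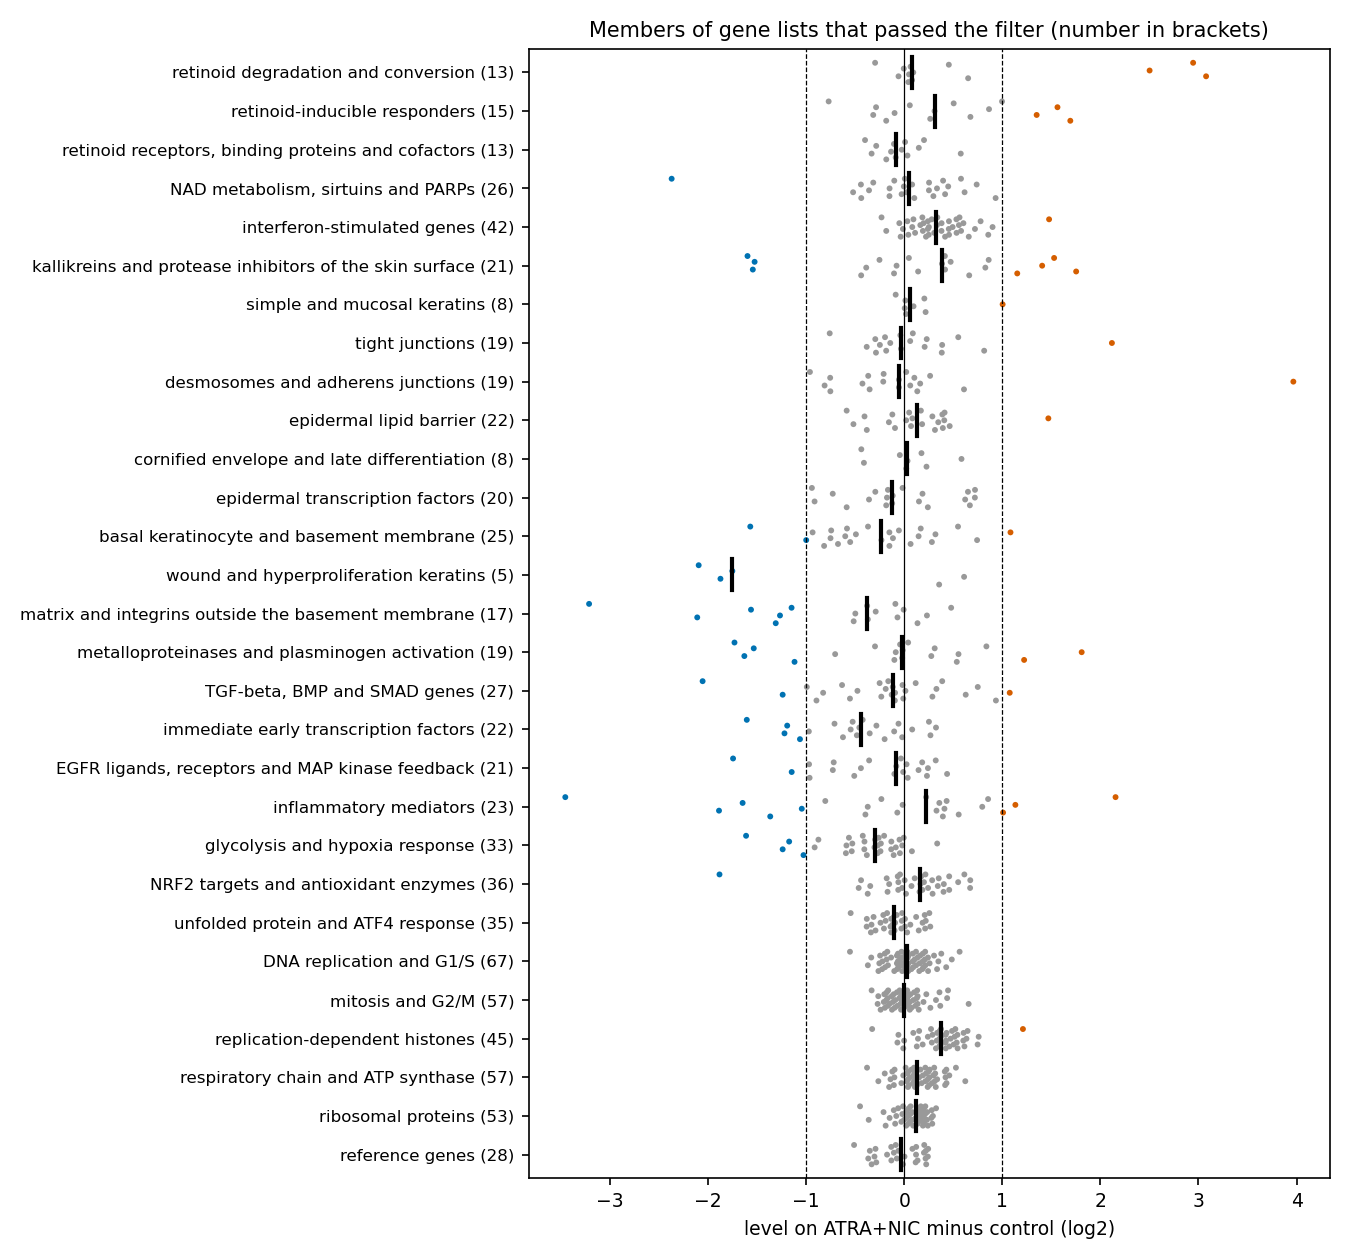
Differences (ATRA+NIC minus control, log2) of the members of 29 gene lists that passed the filter. Each point is a gene, orange from 2-fold higher and blue from 2-fold lower, black bars are medians, the solid line is no difference and dashed lines are 2-fold. Wound keratins (median −1.75), immediate early genes (−0.44) and matrix genes (−0.38) lie to the left, and histones (0.37) and interferon-stimulated genes (0.32) to the right.

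Matrix genes were called in the lower direction alone. Of 17 matrix and integrin genes outside the basement membrane, 6 were called lower (35.3%) and 0 higher, beside 0.978% and 1.03% of all genes. Their median difference was −0.38, and CCN2, 1 of the 6, passed the filter through the ATRA array alone. THBS1, which encodes the matrix glycoprotein thrombospondin 1, read 10959.9, 5198 and 2534 and was 4.32-fold lower. FN1, which encodes fibronectin, read 8789, 3131 and 2973 and was 2.96-fold lower. THBS1 was lowest on the ATRA+NIC array, and FN1 was about equally low on both treated arrays. TNC, which encodes tenascin C, read 451, 86.7 and 48.5 and was at least 4.36-fold lower. Its brighter transcript read 3786, 398 and 214, while the other lay near or under an intensity of 50 on every array. ITGB6, an integrin of migrating epithelium, read 1895, 843 and 854 and was 2.22-fold lower. CCN1 and CCN2, secreted matricellular proteins, were 2.48-fold and 2.41-fold lower, and both were highest on the ATRA array. CCN2 read 198, 1250.1 and 82.2.

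In the basement membrane list there were fewer calls. Of 25 genes, 17 had differences below 0, where 48.8% of all genes had differences above 0. In this list 2 genes were called lower, KRT5 among them, and KRT15 was called higher (12%, beside 2.00% of all genes). The median difference of the 25 was −0.23. The laminin chains LAMA3 and LAMB3 differed by −0.75 and 0.15. COL17A1, the hemidesmosomal collagen, differed by −0.94, and the integrins ITGA6 and ITGB4 by −0.82 and −0.49.

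**Figure D5:**
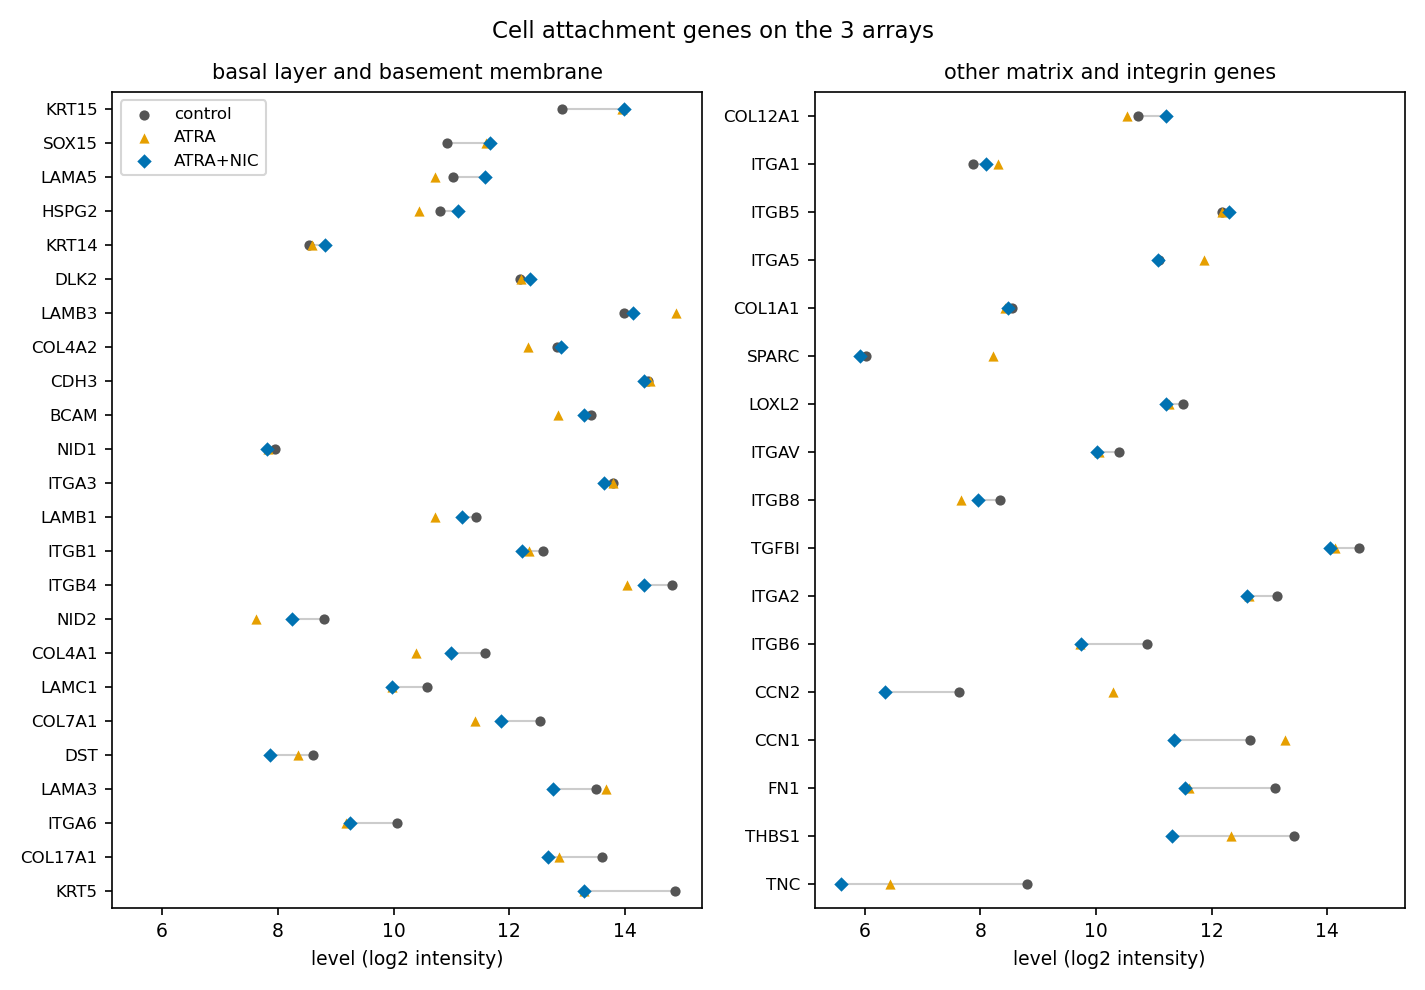
Levels (log2 intensity) on the control (grey circles), ATRA (orange triangles) and ATRA+NIC (blue diamonds) arrays of 24 of the 25 basal layer and basement membrane genes (left) and 17 other matrix and integrin genes (right), ordered by difference, with a line joining control and ATRA+NIC. TNC, THBS1, FN1, CCN1, CCN2 and ITGB6 are at least 2-fold lower at the foot of the right panel, and KRT5 at the foot of the left one.

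Matrix proteases differed in both directions. Of 19 metalloproteinase and plasminogen genes, 4 were lower and 2 higher (31.6%, beside 2.00% of all genes), and MMP10 passed the filter through the ATRA array alone. MMP2, a gelatinase, read 1595, 555 and 550.0 and was 2.90-fold lower. MMP10 and MMP1, a stromelysin and a collagenase, were 3.10-fold and 2.17-fold lower. MMP7, the matrilysin of glandular epithelia, read 493, 2758 and 1727 and was 3.50-fold higher. TIMP3, an inhibitor of metalloproteinases, read 3835, 10242 and 8944 and was 2.33-fold higher.

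Growth factors and their regulators differed in both directions. INHBA, the subunit of activin A, read 3009, 2998 and 723 and was 4.16-fold lower, with the ATRA array level with control and all 3 transcripts between −2.10 and −1.99. FST, which encodes the activin antagonist follistatin, was 2.36-fold lower. ID1, an inhibitor of helix-loop-helix factors and a BMP target, read 6776, 8442 and 14275 and was 2.11-fold higher. It was the third call among the 27 genes of the TGF-beta and BMP list that passed the filter (11.1%, beside 2.00% of all genes). BMP3, called higher, was not on that list. NRG1, a ligand of ERBB3 and ERBB4, read 2284, 1713 and 680.4 and was 3.36-fold lower over 8 transcripts, which ranged from −2.80 to −1.19. ERRFI1, a feedback inhibitor of the EGF receptor, read 1784, 8886 and 804 and was 2.22-fold lower. The EGF receptor ligands AREG, HBEGF and EREG differed by −0.97, −0.04 and 0.18. Of 21 EGF receptor ligand, receptor and feedback genes that passed the filter, 2 were called, both lower (9.52%, beside 0.978% of all genes). Their median was −0.08. WNT7B, a secreted WNT ligand, read 419, 557 and 1092 and was 2.60-fold higher. It was the only call among the 21 genes of the WNT list that passed the filter (4.76%, beside 2.00% of all genes). DACT1, a WNT pathway modulator that was called lower, was not on that list.

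Immediate early transcription factors, which respond to growth factors and stress within minutes, lay mostly under their control level with ATRA+NIC. Of 22 genes, 18 had differences below 0, with a median of −0.44. A difference of 2-fold or more was reached by 4 lower (18.2%) and 0 higher genes, beside 0.978% and 1.03% of all genes. However, 1 of the 4, EGR3, passed the filter through the ATRA array alone and was below 50 on both compared arrays. JUN, an AP-1 subunit, read 325, 1683 and 107 and was 3.05-fold lower. FOSB and KLF6 were 2.09-fold and 2.33-fold lower. EGR3 read 37.3, 759.7 and 16.3 and so has no fold. FOS read 211, 4372 and 165 and EGR1 read 421, 4547 and 366. Each of these genes was brightest on the ATRA array.

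Inflammatory genes split. Of 23 that passed the filter, 5 were lower and 3 higher (34.8%, beside 2.00% of all genes), and CXCL3 passed it through the ATRA array alone. Their median was 0.22, but it was −0.03 over all 42 measured. CCL4, a macrophage inflammatory chemokine, read 259, 481 and 23.6 and was at least 5.19-fold lower, and CCL3, its neighbour on chromosome 17, read 491, 996 and 133 and was 3.71-fold lower. CCL3L1, a near-copy of CCL3, was at least 2.72-fold lower and may share its probes. All of them were brightest on the ATRA array. TNF read 339, 353 and 108 and was 3.14-fold lower. IL1A and IL1B, the alarm cytokines of keratinocytes, were 2.58-fold and 2.07-fold lower. The neutrophil chemokine CXCL3 read 24.8, 550.2 and 111 and was at least 2.21-fold higher. CSF1, the macrophage growth factor, and PTGES, the prostaglandin E synthase, were 2.19-fold and 2.01-fold higher. CXCL8 read 438, 4837 and 582, a difference of 0.41.

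Some of the lower genes are best known from lymphocytes. PRF1, which encodes the pore-forming protein perforin, read 149, 351 and 31.7 and was at least 2.58-fold lower. CD3E, a chain of the T cell receptor complex, read 251, 501 and 70.6 and was 3.55-fold lower. Of 20 leukocyte markers, 7 passed the filter, 5 with differences below 0 and 2 above. CD3E alone was called (14.3%, beside 2.00% of all genes). CD14, another marker of the list, read 190, 347 and 333, a difference of 0.81. The summed intensity of all 20 markers was 3597 in control, 7144 with ATRA and 3733 with ATRA+NIC. PTPRC, which marks all leukocytes, read 33.7, 151 and 18.5, and CD3D, another chain of the same complex, read 21.1, 53.2 and 18.2. The part of leukocyte transcripts in these differences was not tested. Keratinocyte markers summed to 241344, 224037 and 206694, and all 19 passed the filter. Some markers of fibroblasts (COL1A2 33.8, 42.9 and 65.4, LUM 18.2, 20.6 and 16.4) and melanocytes (TYR 16.6, 16.8 and 23.8, DCT 31.0, 30.3 and 51.2) were dim. Others were not: 4 of 13 fibroblast markers passed the filter, among them S100A4 (1174, 965 and 959) and FBLN1 (1323, 1240 and 1483). Of 8 melanocyte markers 1 passed, MITF, which read 155, 204 and 268.

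Genes of nicotinamide and NAD metabolism were mostly near their control level. Of 26 that passed the filter, 1 was lower and 0 higher (3.85%, beside 2.00% of all genes called in either direction), with a median of 0.05. That gene was IDO2, a tryptophan-degrading enzyme at the head of the kynurenine route, which read 271, 23.0 and 52.3 and was 5.18-fold lower from 1 transcript. It was dimmest on the ATRA array. NAMPT, the enzyme that recycles nicotinamide to NAD, read 3173, 6194 and 2209, a difference of −0.52. NNMT, which methylates nicotinamide, read 46.1, 41.1 and 32.3 and did not pass the filter. SIRT1 read 396, 696 and 357, a difference of −0.15, and SIRT2 differed by 0.58. PARP10, PARP9 and PARP14, members of the poly-ADP-ribose polymerase family, differed by 0.93, 0.74 and 0.61.

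Those 3 PARP genes are also known as interferon-inducible. In the list of 42 interferon-stimulated genes that passed the filter, 37 had differences above 0 and the median was 0.32, but SAMD9L alone was called (2.38%). Among all genes 48.8% had differences above 0 and 2.00% were called in either direction. SAMD9L, an antiviral factor, read 295, 346 and 821 and was 2.78-fold higher. IFIT2, an RNA-binding antiviral protein, read 3468, 5073 and 6469.9, a difference of 0.90. The transcription factors IRF7 and IRF1 differed by 0.86 and 0.72, and STAT2 and IFI6 by −0.18 and −0.23. PSMB10, a subunit of the immunoproteasome, RTP4, an interferon-induced chaperone of receptors, LGALS9, which encodes galectin 9, and GBP3, a guanylate-binding protein, were picked after their values were seen. They read 1847, 3068 and 4986 for PSMB10, 248, 391 and 708 for RTP4, 1009, 2832 and 2748 for LGALS9 and 260.5, 413 and 604 for GBP3. All 4 were higher on the ATRA+NIC array than on the control array, by 2.70-fold, 2.85-fold, 2.72-fold and 2.32-fold. The core of the interferon response element, GAAA followed by 2 bases and another GAAA on either strand, was also searched after values had been seen. It occurred in 12 of 91 higher genes with a window (13.2%), in 3 of 64 lower genes (4.69%) and in 3.86% of the 8681 genes passing the filter with a window. The stretches around it in these 4 promoters are printed to show where it lies, with the core in capitals, as RefSeq GRCh38.p14 sequence on the strand of the gene.
PSMB10, chr16:67936847-67936886, minus strand: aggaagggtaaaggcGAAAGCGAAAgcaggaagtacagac
RTP4, chr3:187368328-187368391, plus strand: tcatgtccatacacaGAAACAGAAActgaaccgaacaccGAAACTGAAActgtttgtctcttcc
LGALS9, chr17:27631164-27631203, plus strand: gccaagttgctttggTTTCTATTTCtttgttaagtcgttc
GBP3, chr1:89022840-89022879, minus strand: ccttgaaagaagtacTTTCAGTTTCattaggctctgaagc
RTP4 holds the core at 2 places, and in LGALS9 and GBP3 it lies on the opposite strand.

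In the lists of stress genes 3 were called lower and none higher, where 0.978% of all genes were called lower. HMOX1, the gene of the inducible heme oxygenase, read 551, 10039.5 and 149 and was 3.69-fold lower with ATRA+NIC than in control, with both transcripts alike at −1.85 and −1.92. It was the only call among 36 NRF2 target and antioxidant genes (2.78%), whose median was 0.16. The heat shock genes HSPA6 and HSPB8, 2 of 17 in their list (11.8%), were 2.43-fold and 2.69-fold lower, and HSPA6 read 2190.0, 19615 and 902. None of 35 unfolded protein and ATF4 response genes was called, with DDIT3 at 1549, 12716 and 1762. All 9 metallothionein pathway genes that passed the filter had differences below 0, from −0.67 to −0.13, and none was called.

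Genes of glycolysis and of the hypoxia response lay mostly below their control levels. Of 33 genes, 31 had differences below 0, 4 were called lower (12.1%) and 0 higher, and the median was −0.30. Among all genes 48.8% had differences above 0 and 0.978% were called lower. NDRG1, a hypoxia-induced gene, read 7059, 15746 and 2305 and was 3.06-fold lower. BNIP3, EGLN3 and PDK1, further targets of hypoxia-inducible factor, were 2.36-fold, 2.26-fold and 2.04-fold lower. All 4 were brightest on the ATRA array. The abundant glycolytic enzymes PKM and ALDOA differed by −0.02 and −0.05. Of 57 respiratory chain and ATP synthase genes, 46 had differences above 0, with a median of 0.13, and none was called.

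Cell cycle genes were near control. None of 67 DNA replication, 57 mitosis and 34 DNA repair genes was called, with medians of 0.03, −0.00 and 0.01. MKI67, the proliferation marker, read 3782, 1718 and 3487, and PCNA, the replication clamp, read 9858, 5194 and 12801, a difference of 0.38. CDKN1A, which encodes the cycle inhibitor p21, read 4343, 14255 and 3250.1, a difference of −0.42. The replication-dependent histones differed more, with 40 of 45 above 0, beside 48.8% of all genes. Their median was 0.37, and 1 gene, H1-3, was 2.31-fold higher (2.22%, beside 1.03% of all genes called higher). The 53 ribosomal protein genes had a median of 0.12 and the 28 reference genes one of −0.04, with none called in either list.

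The remaining genes named by rank had varied roles. OLFM4, a secreted glycoprotein of glandular epithelium, read 4558, 1498 and 1192 and was 3.82-fold lower. HMGA2, a chromatin protein of embryonic and tumour cells, read 352, 153 and 98.3 and was 3.58-fold lower. SLITRK6, a membrane protein of neurons, was at least 2.65-fold lower, and APCDD1L and the WNT pathway modulator DACT1 were 3.42-fold and 3.39-fold lower. MSC, a helix-loop-helix repressor, read 1073, 864 and 282 and was 3.80-fold lower. FILIP1L read 939.6, 836 and 286 and was 3.28-fold lower, and DYNLT4, a dynein light chain gene, was 3.53-fold lower. For SLITRK6, HMGA2, APCDD1L, DACT1 and DYNLT4 the ATRA array lay below control as well, while FILIP1L and MSC were near control on it. BHLHE41, a repressor of the circadian clock, read 352, 743 and 1036 and was 2.94-fold higher. It was the only call among 14 clock genes (7.14%, beside 2.00% of all genes).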

How the data were processed

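RNA of HaCaT cells was labelled with Cy3 and hybridised to 3 single-colour NimbleGen arrays, per the labels' protocols. The authors deposited, for each of 45033 transcripts read by 3 probes, an intensity on a linear scale, named an RMA gene call per the file headers. RMA removes background, brings arrays to a common distribution and combines the probes of a transcript. No source used here names the software. The authors' intensities were used as log2 values with no further scaling. Transcripts without a gene name (2086) and random probes were left out. Of 23619 Entrez numbers, 20230 matched a current symbol in RefSeq (GRCh38.p14), which was used for names and promoter windows only, since the gene coordinates of the files are on hg18. Near-identical genes may share probes. A few genes are not reported here.

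Named genes were the 15 highest and 15 lowest differences among genes with 2 or more transcripts that all differed in the same direction, the 8 highest and 8 lowest with 1 transcript, the 3 greatest of each list, called members of described lists, and a fixed set. Locus, clone and reading-frame names were passed over in the ranking. The members and the 44 gene lists, of 1217 measured genes, were chosen with earlier results of these data known. A further 10 families and 2 motifs were added after values had been seen. Alternatives were pseudocounts, filters, transcript summaries, gene grouping, centring and the value table, identical for the 31275 transcripts it lists, those at 50 or more on every array. The counting rule was run on simulated data with planted changes well above the threshold, which checks the code and not the calls. Python 3.11.15, numpy 2.4.6, pandas 2.3.3, statsmodels 0.14.6 and matplotlib 3.10.9 were used.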

Additional observations from a re-analysis of the deposited data

Results flagged for a closer look

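Transcripts without a gene name in the file annotation were left out of the comparison. Of the 816 that reached the filter level, 6 were at least 2-fold higher on the ATRA+NIC array than on the control array, and 33 were at least 2-fold lower. They were singled out because they lie in data that the comparison does not use.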

How the results depend on the processing

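The 128 higher and 122 lower genes became 74 and 70 with 100 added to each intensity before the logarithm, 550 and 492 with no filter, 44 and 49 with a filter at the 75th percentile, and 72 and 76 in the authors' value table, which holds fewer transcripts. Under the other 8 settings the counts stayed within 1.5 times, from 90 to 143 and from 86 to 133. Under all 8 settings that keep the named genes, each of the 94 named and called genes that was measured kept its direction, and between 76 and 94 stayed 2-fold, or all 84 measured in the value table. The kept directions say little. An added constant cannot turn the sign of a transcript, and these genes have large differences on the same 2 arrays by choice. Some list medians moved. With the 75th-percentile filter the retinoid responders had 0.68, the EGFR list −0.48 and the clock genes −0.25. With no filter the wound keratins had −0.99, the inflammatory mediators −0.032 and the leukocyte markers −0.41, which had −0.54 by the brightest transcript. The causes were not tested. No paired analysis was possible because each group has 1 array, and for the same reason no replicate could be left out. Of the called genes, 16 higher and 13 lower ones have a bound for a fold, and 5 of these bounds are under 2-fold. A nicotinamide-only array and a second culture were not analysed here.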

Other observations

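Families outside the fixed lists were counted after values had been seen, so they are descriptions of these 2 arrays, to be set beside the 1.03% of all genes called higher and 0.978% called lower. Of 7 CEACAM genes passing the filter, 4 were called higher, with a median of 1.70, while the median over all 11 measured was 0.54. CEACAM5 and CEACAM6, 2 of the 4, lay under the filter on both compared arrays and passed through the ATRA array alone. CEACAM1, an adhesion receptor of epithelia and leukocytes, read 142, 642 and 464 in the order control, ATRA, ATRA+NIC. Of 8 mucins, MUC20 and MUC13 (passing through the ATRA array alone) were called higher, and MUC4 and MUC16 differed by 0.96 and 0.83. All 18 genes of antigen processing and presentation that passed had differences above 0, with a median of 0.32, and UBD and PSMB10 were called. TAPBP, which loads peptides onto HLA class I, read 7721, 11152 and 13363. Of 38 tripartite motif genes only TRIM31 was called, and of 20 HOX genes only HOXC13, at 2426, 2824 and 5456, a factor of hair and nail keratins. Of 8 galectin genes the near-identical LGALS9 and LGALS9C were called higher. Of 6 ephrin receptor genes EPHA4 was called, at least 2.01-fold lower. Of 12 S100 genes only S100P was called, and it passed through the ATRA array alone. Of 7 CC chemokines 5 were called lower, all of them CCL3 and CCL4 or their near-copies, 2 of which passed through the ATRA array alone, and CCL2 differed by 0.33.

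Further called genes were picked after their values were seen. PTHLH, the parathyroid hormone-like factor of keratinocytes, read 25976, 17031 and 8104 and was 3.21-fold lower. SNAI2, a repressor of epithelial junction genes, read 6105, 4781 and 2273 and was 2.69-fold lower. Of the contractile genes, TAGLN was at least 2.12-fold lower, and TPM1 and MYL9 were 2.07-fold and 2.02-fold lower, with MYL9 at 4787, 3545 and 2367. On the higher side, SCNN1A, a subunit of the epithelial sodium channel, read 10023, 16004 and 20480.4 and was 2.04-fold higher. ELF3, an epithelial ETS factor, read 10089.9, 28018 and 23613, and FOXA1, a pioneer factor of glandular epithelia, read 759, 2524 and 1681, 2.34-fold and 2.21-fold higher. The AP-1 site TGACTCA, searched after values had been seen, occurred in the windows of 12.1% of 91 higher genes, 12.5% of 64 lower genes and 4.8% of 8681 genes that passed the filter.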
